A study of Mus musculus with 12 samples.

Results

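The peptide and receptor genes of the itch-sensing neurons of the dorsal root ganglion were followed after deletion of Prdm12 in adult mice: 9 in all, the peptide genes Nppb, Sst and Nts, the receptor genes Il31ra, Osmr, Cysltr2, Htr1f and Hrh1, and the kinase gene Jak1. They were taken by name, with earlier results of these data known, 9 of the 55416 genes counted, and all 9 had enough counts to be tested. Prdm12 encodes a zinc finger protein without which pain-sensing and itch-sensing neurons do not form during development, and the comparison shows how its loss in adults bears on their genes. Poly(A) RNA was sequenced in 12 libraries of C57Bl6 ganglia.

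The 6 iKO libraries came from mice with the Rosa26Cre ERT2 allele (a Cre recombinase that tamoxifen switches on, made from a locus active in most cell types) and with 2 floxed Prdm12 alleles, taken 1 month after tamoxifen. The 6 controls were of 2 kinds. Controls 1 to 4 received tamoxifen. Of these, control 1 had Cre with a single floxed allele, controls 2 and 3 had a single floxed allele but no Cre, and control 4 had Cre alone. Controls 5 and 6 had the iKO genotype and received corn oil. All 12 libraries were of adults. Libraries iKO 1 to 3 and controls 1 and 2 were female, and the other 7 were male. Controls 1 to 4 thus share the injected agent with the iKO mice but not the alleles, and controls 5 and 6 share the alleles but not the agent. Whether a library holds the ganglia of 1 animal or a pool is not in the labels, and the p-values therefore reflect how these samples spread, which may be technical.

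Itch is carried to the spinal cord by small unmyelinated neurons. One class of them, known as NP3 or Nppb neurons, releases natriuretic polypeptide b (Nppb) onto spinal neurons that relay itch, and also makes somatostatin (Sst) and, in mice, neurotensin (Nts). Its surface receptors read skin inflammation: Il31ra and Osmr pair to form the receptor of interleukin 31, the T cell cytokine of allergic itch, and signal through the kinase Jak1, while Cysltr2 binds cysteinyl leukotrienes from mast cells and other leukocytes. Htr1f is an inhibitory serotonin receptor, and Hrh1 is the histamine receptor at which most antihistamines act.

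The stretches around the transcription start are shown for Sst, Nts and Cysltr2, the genes that rose, and for Nppb, the peptide gene that names the cell class. Each runs 5′ to 3′ on the gene's own strand from 250 bases before to 50 bases after the start (RefSeq, build GRCm38.p6). Capitals mark exact matches to a cAMP response element (TGACGTCA), an AP-1 site (TGANTCA) or a TATA box (TATAAA), searched on both strands. The Sst stretch lies at chr16:23890795-23891094 on the minus strand, that of Nts at chr10:102490369-102490668 on the minus strand, that of Cysltr2 at chr14:73049065-73049364 on the minus strand and that of Nppb at chr4:147985650-147985949 on the plus strand.
Sst: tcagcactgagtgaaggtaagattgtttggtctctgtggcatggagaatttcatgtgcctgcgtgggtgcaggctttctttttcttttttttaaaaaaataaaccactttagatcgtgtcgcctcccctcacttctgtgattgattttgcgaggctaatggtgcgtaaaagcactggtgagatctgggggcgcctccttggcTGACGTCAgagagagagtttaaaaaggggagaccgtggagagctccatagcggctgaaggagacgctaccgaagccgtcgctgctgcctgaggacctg
Nts: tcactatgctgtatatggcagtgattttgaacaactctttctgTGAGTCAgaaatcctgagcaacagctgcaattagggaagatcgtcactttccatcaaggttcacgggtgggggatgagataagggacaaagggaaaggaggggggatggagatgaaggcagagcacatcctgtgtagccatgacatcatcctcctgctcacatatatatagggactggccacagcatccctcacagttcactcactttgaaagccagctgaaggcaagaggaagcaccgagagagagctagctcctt
Cysltr2: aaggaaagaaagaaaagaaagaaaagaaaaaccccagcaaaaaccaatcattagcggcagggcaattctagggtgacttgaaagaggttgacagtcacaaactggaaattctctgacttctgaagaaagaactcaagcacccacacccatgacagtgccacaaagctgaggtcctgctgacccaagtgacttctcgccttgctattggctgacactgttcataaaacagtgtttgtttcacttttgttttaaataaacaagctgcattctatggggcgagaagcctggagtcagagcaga
Nppb: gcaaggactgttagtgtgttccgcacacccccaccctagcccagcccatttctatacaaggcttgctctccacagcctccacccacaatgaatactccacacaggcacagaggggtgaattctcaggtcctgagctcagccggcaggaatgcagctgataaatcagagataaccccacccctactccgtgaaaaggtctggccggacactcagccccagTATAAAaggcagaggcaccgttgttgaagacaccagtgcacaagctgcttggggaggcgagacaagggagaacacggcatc

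Sst held a cAMP response element that begins 48 bases before the start, the element through which cAMP is known to switch this gene on. Over the 32851 promoters in the table, 1.8% held that element, 7.8% an AP-1 site and 13.6% a TATA box. Nts held 1 AP-1 site, Nppb 1 TATA box, and the Cysltr2 window none of the 3 motifs. Of the other 5 genes, Jak1 held a cAMP response element that begins 101 bases before its start, Osmr an AP-1 site that begins at base 4 after it, and 1 of the 4 start sites listed for Hrh1 an AP-1 site. The shorter form CGTCA, which lies inside the full element and is in 20.8% of promoters, was also found apart from a full element in Nts and Jak1. The matches are a description of these windows and were not tested for activity.

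Prdm12 was lower in every iKO library than in any control, with 18.6, 23.9 and 25.4 CPM (lowest, median and highest; CPM is the count scaled to a common library size) in iKO libraries and 64.6, 124 and 147 CPM in controls. Its fold change was -2.33 ± 0.18 on the log2 scale (SE; adjusted p = 8.59e-05 in edgeR's quasi-likelihood test). Totals ran from 13943784 to 20377766 counts per library. Libraries iKO 1 and control 6 stood apart. iKO 1 had the highest summed macrophage, fibroblast, endothelial and satellite glia markers and the lowest sensory neuron markers. Control 6 had the least Prdm12 of the controls and 411 CPM of summed muscle markers, against 18.4 to 77.9 CPM in the other controls. The 12 sensory neuron marker genes were all present, and their summed level was 12254 to 16447 CPM in iKO libraries and 14060 to 16431 CPM in controls.

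Among the 9 itch neuron genes Sst, Nts and Cysltr2 rose in iKO ganglia, 1.46-fold to 1.54-fold, none fell, and the other 6 were not called. In edgeR's quasi-likelihood test, its p-values adjusted over all genes by Benjamini-Hochberg, 0.946% of all 16384 genes tested were called (adjusted p under 0.05), with 0.537% higher (88 genes) and 0.409% lower (67 genes). Scaled to the summed sensory neuron markers instead, 51 genes were higher and 59 lower. The median log2 fold change of the 9 genes was -0.02, beside 0.00 for all genes tested (4 of the 9 were above 0). Because the 9 were chosen with earlier results of these data known, their calls are not independent of the data. A pair of peptide genes of this neuron class and its leukotriene receptor gene thus rose, while the third peptide gene and both chains of the interleukin 31 receptor missed the threshold; whether the genes differ in response was not tested. In whole ganglia, more cells of a class and more RNA per cell cannot be told apart.

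**Figure D1:**
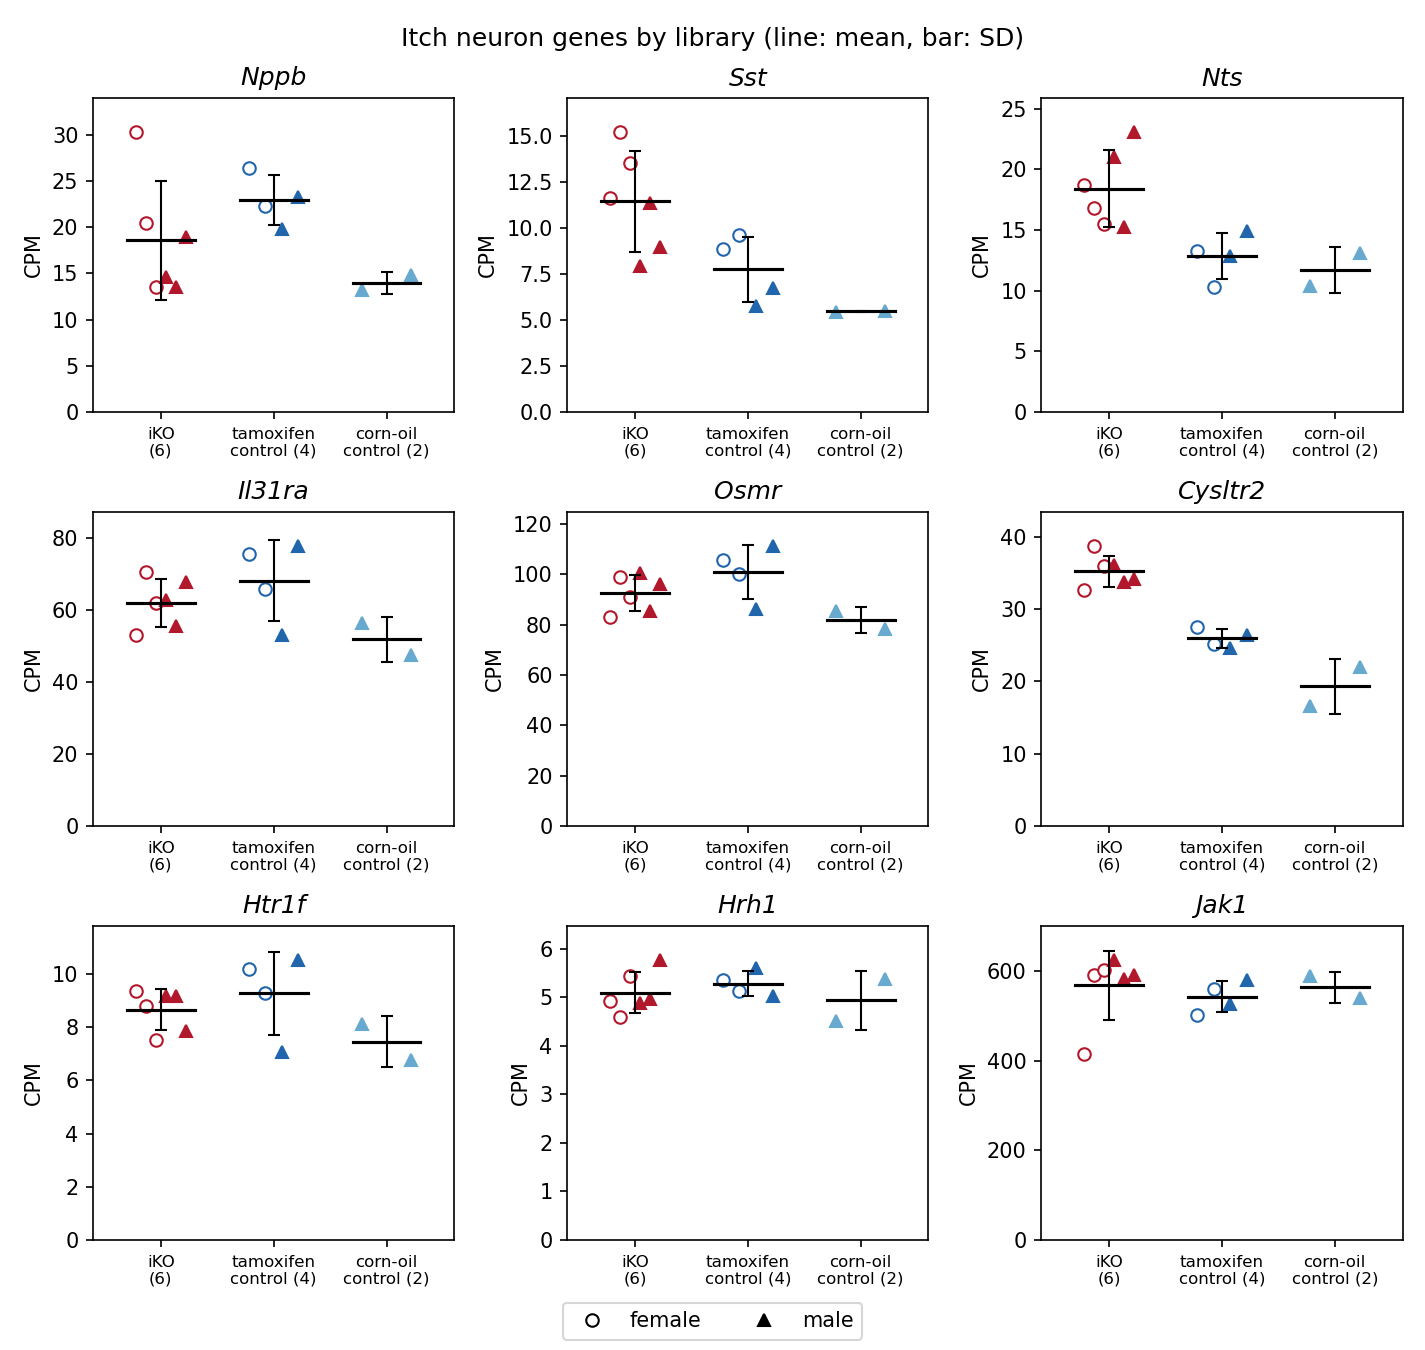
Level of each of the 9 genes in CPM (vertical axis, from 0) in the 6 iKO, 4 tamoxifen-injected control and 2 corn-oil control libraries; open circles are female and filled triangles male libraries, lines are means and bars SD. All iKO points of Nts and Cysltr2 lie above all control points, and the iKO and control points of Sst separate within each sex.

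Sst encodes somatostatin, an inhibitory peptide that in this class is stored beside Nppb. Its lowest, median and highest levels were 7.93, 11.5 and 15.3 CPM in iKO libraries, against 5.45, 6.27 and 9.62 CPM in controls. All 6 iKO libraries were above the control median and 4 of them above every control, so the groups overlapped. The mean was 11.5 ± 2.74 CPM in iKO libraries and 6.99 ± 1.82 CPM in controls (SD, n = 6 each), and the fold change was 1.54 (95% interval 1.31 to 1.81, adjusted p = 0.011 in edgeR's quasi-likelihood test).

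Sst levels separated within each sex. Female iKO libraries had 11.7, 15.3 and 13.6 CPM, against 8.87 and 9.62 CPM in female controls. Male iKO libraries had 7.93, 11.4 and 8.97 CPM, against 5.78, 6.75, 5.45 and 5.49 CPM in male controls. Within each sex every iKO library was therefore above every control, as was so for Nts and Cysltr2 and for 1.23% of all genes tested (1.07% had every iKO library below). Without sex in the model the fold change of Sst was larger (0.71 on the log2 scale) but its adjusted p was 0.0943 in edgeR's quasi-likelihood test, so the call was lost there.

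Nts encodes neurotensin, a short peptide that the neuron cuts from a longer precursor. It was at 15.2, 17.8 and 23.1 CPM in iKO libraries (lowest, median and highest), against 10.3, 13.0 and 14.9 CPM in controls. The lowest iKO library, iKO 5, was above the highest control, control 4, so the groups did not overlap, as in 1.54% of all genes tested (0.879% with iKO above). Mean levels were 18.4 ± 3.16 CPM in iKO libraries and 12.5 ± 1.78 CPM in controls (SD, n = 6 each), a 1.5-fold difference (95% interval 1.26 to 1.78, adjusted p = 0.0238 in edgeR's quasi-likelihood test). This was the least firm of the 3 calls, since it was lost without any 1 of iKO 4, iKO 6, control 2 and control 3 (adjusted p = 0.0709, 0.0908, 0.0911 and 0.0553 in edgeR's quasi-likelihood test).

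Nppb, whose peptide opens the itch relay in the spinal cord, was at 13.5, 16.7 and 30.3 CPM in iKO libraries, against 13.2, 21.0 and 26.4 CPM in controls. In 5 of 6 iKO libraries Nppb was below the control median, and the highest value of all 12 was that of iKO 1. The log2 fold change was -0.18 ± 0.19 (SE, 95% interval -0.60 to 0.23, adjusted p = 0.801 in edgeR's quasi-likelihood test). That interval, against all controls, reaches from 0.66-fold to 1.18-fold and does not take in the fold estimates of Sst and Nts. Against the corn-oil controls alone, the Nppb interval (0.775-fold to 1.75-fold) takes in those of Sst (1.71-fold) and Nts (1.68-fold). Whether Nppb differs from them in response was not tested. Nppb had the widest spread of the 9 genes among iKO libraries, with an SD of 34.8% of the mean.

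Cysltr2, the leukotriene receptor, had the smallest SD relative to its mean among iKO libraries of the 3 genes that rose (6.19%). In iKO libraries it was at 32.7, 35.0 and 38.8 CPM (lowest, median and highest), and in controls at 16.6, 24.9 and 27.5 CPM. Every iKO library was above every control, with a gap between 32.7 CPM in iKO 1 and 27.5 CPM in control 1. Means were 35.2 ± 2.18 CPM in iKO libraries and 23.7 ± 3.97 CPM in controls (SD, n = 6 each), the fold change was 1.46 (95% interval 1.27 to 1.69), and the adjusted p was 0.0109 in edgeR's quasi-likelihood test. The fold changes of Sst and Cysltr2 kept an adjusted p under 0.05 on leaving out each of the 12 libraries in turn (largest 0.0406 and 0.0397 in edgeR's quasi-likelihood test).

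Of 9 other genes of leukotriene synthesis and sensing, 6 were measurable, 1 rose and 0 fell, while 0.537% of all genes tested rose. The median log2 fold change of the 6 was -0.11, with 2 above 0 and 4 below. The riser was Ggt5, an enzyme that trims leukotriene C4 to leukotriene D4 on the cell surface. It was at 9.95, 11.7 and 15.05 CPM in iKO libraries, against 6.17, 7.09 and 8.30 CPM in controls, with no overlap (1.65-fold, 95% interval 1.41 to 1.93, adjusted p = 0.00308 in edgeR's quasi-likelihood test). Cysltr1, the other cysteinyl leukotriene receptor, was low in both groups, with a median of 1.16 CPM in iKO libraries and 1.31 CPM in controls. Cysltr2 and Ggt5 were thus both higher in each iKO library than in any control, as were 0.879% of all genes tested. In which cells the enzyme was made cannot be read from whole ganglia.

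Il31ra and Osmr, the chains of the interleukin 31 receptor, were not called. Il31ra was at 53.0, 62.2 and 70.4 CPM in iKO libraries, against 47.4, 61.0 and 77.7 CPM in controls. Osmr was at 83.2, 93.5 and 100.4 CPM in iKO libraries, against 78.2, 93.2 and 111 CPM in controls. Every iKO value of both genes lay inside the control range. The log2 fold changes were -0.03 ± 0.12 (95% interval -0.29 to 0.22) for Il31ra and -0.04 ± 0.09 (95% interval -0.23 to 0.14) for Osmr, with adjusted p = 0.953 and 0.913 in edgeR's quasi-likelihood test. The 1.46-fold estimate of Cysltr2 lies outside both intervals, which reach 1.16-fold and 1.11-fold, but a difference between the genes was not tested.

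Jak1, which carries the signal of many cytokine receptors and is made in most cells, was at 415, 591 and 626 CPM in iKO libraries, against 502, 550 and 588 CPM in controls. The 415 CPM belonged to iKO 1, and the other 5 iKO libraries lay between 583 and 626 CPM. Its log2 fold change was 0.07 ± 0.09 (95% interval -0.12 to 0.25, adjusted p = 0.845 in edgeR's quasi-likelihood test), and 0.13 ± 0.05 without iKO 1 (adjusted p = 0.206). Of 18 measured genes among 19 other Janus kinases, STAT factors and feedback inhibitors, 0 rose and 0 fell (median log2 fold change -0.05). Pias3, an inhibitor of STAT3, was nearest to the threshold (0.33 ± 0.07 SE, adjusted p = 0.0532 in edgeR's quasi-likelihood test) and was called in some other settings. The list of 17 related cytokines and receptor chains had 12 measured members, 0 higher and 0 lower (median 0.00). In it Crlf2, a chain of the receptor for the itch cytokine TSLP, had the smallest p: 10.9, 11.7 and 13.3 CPM in iKO libraries against 6.73, 9.29 and 10.1 CPM in controls, which did not overlap (0.38 ± 0.09 SE, adjusted p = 0.0779 in edgeR's quasi-likelihood test).

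The amine receptors were at low levels and were not called. Htr1f was at 7.52, 9.002 and 9.35 CPM in iKO libraries, against 6.79, 8.71 and 10.5 CPM in controls. Hrh1 was at 4.603, 4.94 and 5.78 CPM in iKO libraries, against 4.50, 5.24 and 5.61 CPM in controls. Both ranges overlapped widely, with log2 fold changes of -0.02 ± 0.12 (95% interval -0.27 to 0.24) for Htr1f and -0.02 ± 0.10 (95% interval -0.24 to 0.20) for Hrh1, and adjusted p = 0.98 and 0.976 in edgeR's quasi-likelihood test. Of 4 measured genes among 5 of histamine synthesis, breakdown and sensing, 0 were called (median -0.15, Hrh3 0.28 ± 0.18 SE with adjusted p = 0.649). Neither was any of 3 other inhibitory serotonin receptors (median 0.04, Htr1b -0.25 ± 0.13 SE with adjusted p = 0.584 in edgeR's quasi-likelihood test).

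Genes that act with the itch peptides and receptors held few calls. Of 11 other genes described for Nppb neurons, such as the heat and capsaicin channel Trpv1 and the phospholipase Plcb3, 0 were called (median log2 fold change 0.04), Stat3 having the smallest p (0.12 ± 0.07 SE, adjusted p = 0.62 in edgeR's quasi-likelihood test). Of 11 receptors for natriuretic peptides, somatostatin and neurotensin 9 were measured and 0 called (median -0.01). The somatostatin receptor gene Sstr1 came nearest, at 0.418, 0.681 and 1.69 CPM in iKO libraries against 1.38, 1.72 and 2.40 CPM in controls (-1.17 ± 0.29 SE, adjusted p = 0.0921), with 5 of 6 iKO libraries below every control. Other natriuretic and itch peptides had 2 of 7 genes measured and 0 called (median 0.05, Tac1, the substance P gene, at 0.10 ± 0.11 SE with adjusted p = 0.818).

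Enzymes that cut and amidate peptide precursors had 0 of 6 called and a median of 0.15. Pam, which amidates peptide ends, was at 269, 283 and 305 CPM in iKO libraries against 227, 246 and 257 CPM in controls, without overlap (0.23 ± 0.06 SE, adjusted p = 0.0964 in edgeR's quasi-likelihood test). Of 11 Gq-pathway genes downstream of itch receptors 0 were called (median -0.07), with Prkcd at -0.25 ± 0.06 SE (adjusted p = 0.117). Genes of the other itch-sensing neuron classes had 1 of 7 called, which fell, while 0.409% of all genes tested fell. Their median log2 fold change was -0.17, with 5 below 0 and 2 above. The called gene was Mrgprb5, a Mas-related receptor, at 6.36, 6.67 and 7.81 CPM in iKO libraries against 9.81, 17.7 and 21.8 CPM in controls (0.40-fold, 95% interval 0.32 to 0.51, adjusted p = 0.000738 in edgeR's quasi-likelihood test). Mrgprb5 has closely similar relatives, and reads that match several of them make its counts uncertain.

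Set against each kind of control, the 3 genes that rose kept their direction. Their fitted fold changes were larger against the corn-oil than against the tamoxifen-injected controls, but none of the 3 was called between the 2 kinds of control. Both comparisons use the same 6 iKO libraries. Cysltr2 had 24.6 to 27.5 CPM in the 4 tamoxifen-injected controls and 16.6 and 22.02 CPM in the 2 corn-oil controls. It was called against both, with log2 fold changes of 0.44 ± 0.08 (adjusted p = 0.0138) and 0.84 ± 0.11 (adjusted p = 0.00908) in edgeR's quasi-likelihood test. Of all genes tested, 1.35% were called against the tamoxifen-injected controls (0.69% higher and 0.665% lower) and 0.146% against the corn-oil controls (0.116% higher and 0.0305% lower). The calls of Cysltr2 were lost without control 3 in the first comparison (adjusted p = 0.0679) and without control 5 in the second (0.0948), when 1 corn-oil library was left and was assumed to vary like the other groups.

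For Sst the values were 5.78 to 9.62 CPM in tamoxifen-injected controls and 5.45 and 5.49 CPM in corn-oil controls. Its log2 fold change was 0.57 ± 0.12 against the first (adjusted p = 0.0329) and 0.78 ± 0.17 against the second (adjusted p = 0.177 in edgeR's quasi-likelihood test). Nts was at 10.3 to 14.9 CPM in tamoxifen-injected and at 10.4 and 13.1 CPM in corn-oil controls, with 0.52 ± 0.13 (adjusted p = 0.063) and 0.75 ± 0.17 (adjusted p = 0.207). Other settings differed on the 3 differences that were not called. DESeq2 called both genes against the corn-oil controls (adjusted p = 0.0366 for Sst and 0.029 for Nts) and Nts against the tamoxifen-injected controls (0.0102). In the same order, limma's voom called none of them (adjusted p = 0.288, 0.319 and 0.0797). Nor did edgeR's quasi-likelihood test with RLE size factors, another scaling of the libraries (adjusted p = 0.1715, 0.202 and 0.0602). Without a filter on low counts, edgeR's quasi-likelihood test called the same 3 differences (adjusted p = 0.00896, 0.000328 and 0.000278). Without iKO 1 Nts was called against both (0.49, adjusted p = 0.0223, and 0.74, adjusted p = 0.0428) and Sst was also called against the corn-oil controls (0.79, adjusted p = 0.0228 in edgeR's quasi-likelihood test). Leaving out any other iKO library instead called neither gene against the corn-oil controls. The call of Sst against tamoxifen-injected controls was lost without any 1 of iKO 2, 3, 5 and 6 and controls 1, 2 and 3 (adjusted p = 0.0555 to 0.14).

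**Figure D2:**
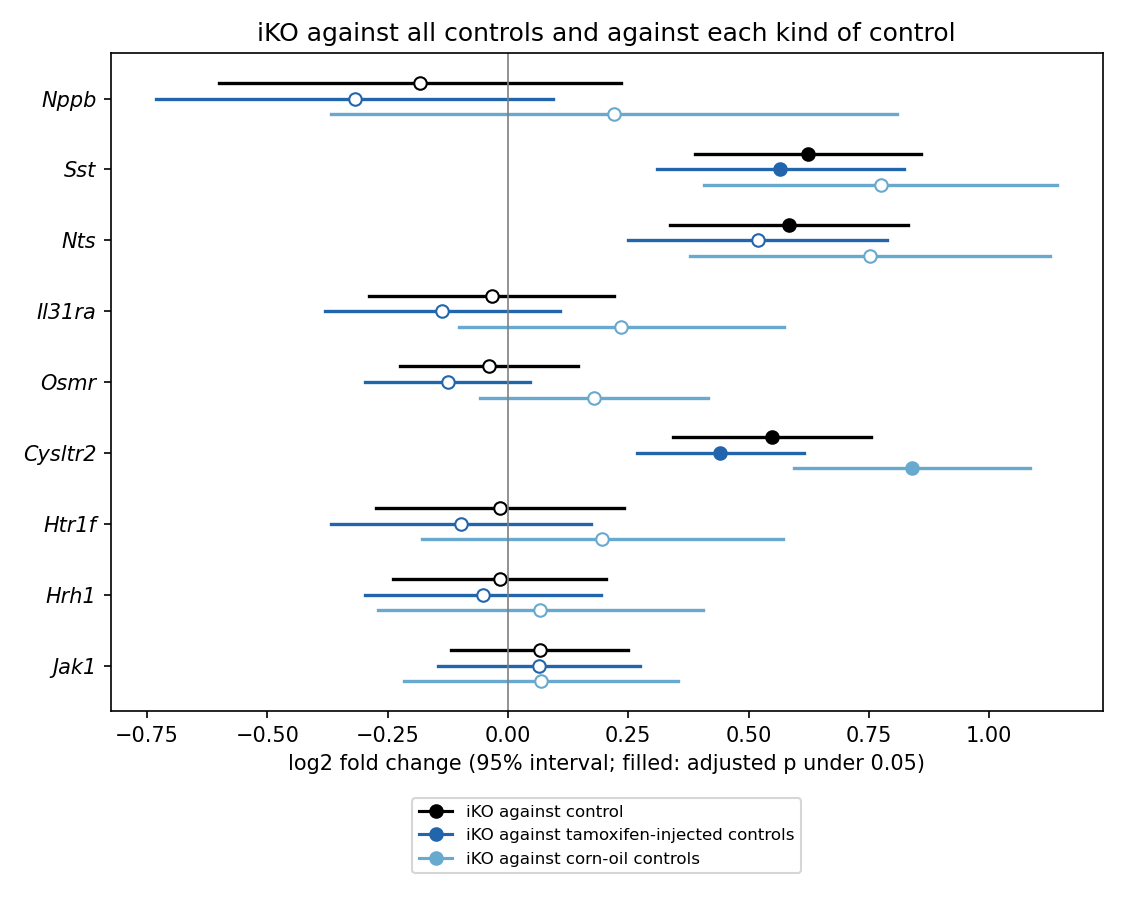
Log2 fold change of each gene (horizontal axis) in iKO libraries against all controls, against the 4 tamoxifen-injected controls and against the 2 corn-oil controls, top to bottom for each gene; bars are 95% intervals and filled points have an adjusted p under 0.05. Sst, Nts and Cysltr2 lie to the right of 0 in all 3 comparisons, while Nppb, Il31ra, Osmr, Htr1f and Hrh1 lie left of 0 against tamoxifen-injected and right of 0 against corn-oil controls.

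Nppb had fold changes of opposite sign in the 2 comparisons, neither of them called. It was at 19.8 to 26.4 CPM in the tamoxifen-injected controls and at 13.2 and 14.8 CPM in the corn-oil controls, while the 13.5 to 30.3 CPM of iKO libraries took in most of both ranges. The log2 fold change was -0.32 ± 0.19 against tamoxifen-injected controls (95% interval -0.73 to 0.09, adjusted p = 0.42) and 0.22 ± 0.27 against corn-oil controls (95% interval -0.37 to 0.81, adjusted p = 1.00 in edgeR's quasi-likelihood test). Without iKO 1, Nppb was called lower than in tamoxifen-injected controls (-0.48 ± 0.12 SE, adjusted p = 0.03), while Sst, Nts and Cysltr2 were called higher in that same comparison. The call of Nppb in this comparison thus turns on 1 library.

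All 9 genes had lower fitted levels in corn-oil than in tamoxifen-injected controls, and none was called, though the differences of Jak1 and Hrh1 changed sign on leaving out single libraries. Without a filter on low counts Nppb was called lower in corn-oil controls (-0.53, adjusted p = 0.0381 in edgeR's quasi-likelihood test). The largest differences were those of Nppb (-0.54 ± 0.28 SE on the log2 scale), Cysltr2 (-0.40 ± 0.12), Il31ra (-0.37 ± 0.16) and Osmr (-0.30 ± 0.12), with adjusted p from 0.393 to 0.469 in edgeR's quasi-likelihood test. For Cysltr2 the unadjusted p was 0.00481. Over all genes 0 were called in this comparison (1900 at an unadjusted p under 0.05, and 44 called by DESeq2). Corn-oil controls also differ from the other controls in genotype and are both male, so agent, genotype and, for want of female corn-oil libraries, part of the sex difference cannot be told apart.

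Of the 9 genes Sst had the largest fitted difference between the sexes. Male against female libraries, over both groups, it was -0.58 ± 0.11 on the log2 scale (unadjusted p = 0.000105, place 11 of 16384), but the adjusted p of 0.157 missed the threshold in edgeR's quasi-likelihood test, under which 0.0549% of genes were called (0.0305% higher and 0.0244% lower). DESeq2 gave an adjusted p of 0.00438, and edgeR gave 0.00906 without a filter on low counts, 0.037 without iKO 1 and 0.0381 without iKO 5. It was not called by limma's voom (adjusted p = 0.176) or by edgeR with RLE size factors (0.159). Leaving out any other single library did not call it either (adjusted p up to 0.63 in edgeR's quasi-likelihood test). Nppb had a difference of the same sign (-0.45 ± 0.19 SE, adjusted p = 0.904), and of the other 7 genes Nts had the largest difference (0.17 ± 0.12 SE). The iKO difference was not shown to depend on sex for any of the 9: the interaction had adjusted p from 0.945 to 0.999, and the intervals were wide, for Sst from -0.35 to 0.63.

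Levels of different genes were compared per kilobase of annotated exon. Jak1 was the most abundant, at 78.6 ± 10.6 CPM per kb in iKO libraries and 76.0 ± 4.53 CPM per kb in controls (SD, n = 6 each). Nppb came next, with 23.7 ± 8.27 in iKO libraries and 25.5 ± 6.53 in controls. In iKO libraries Sst (15.9 ± 3.79 CPM per kb), Nts (14.7 ± 2.53) and Cysltr2 (12.3 ± 0.759) followed, then Il31ra (10.9 ± 1.18) and Osmr (7.64 ± 0.590). In controls the order behind Nppb was Il31ra (11.04 ± 2.19), Nts (9.99 ± 1.43), Sst (9.70 ± 2.52), Cysltr2 (8.26 ± 1.38) and Osmr (7.81 ± 1.08), neighbours that did not differ beyond their SD. Htr1f (3.36 ± 0.300 in iKO libraries and 3.36 ± 0.615 in controls) and Hrh1 (1.15 ± 0.0957 in iKO libraries and 1.16 ± 0.0856 in controls) were lowest in both groups, and their ranges overlapped neither each other nor the rest. In iKO libraries Nppb and Sst, Sst and Nts, and Nts and Cysltr2 did not differ beyond the larger SD of the pair, whereas Il31ra and Osmr did. The order of Il31ra and Osmr rests on the length divisor, which takes all annotated exon bases (5673 and 12113). In CPM Osmr was the higher, with Il31ra at 0.624 to 0.711 of it in iKO libraries and 0.606 to 0.714 in controls. The range of Cysltr2 (11.4 to 13.5 CPM per kb) overlapped that of Il31ra (9.35 to 12.4).

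**Figure D3:**
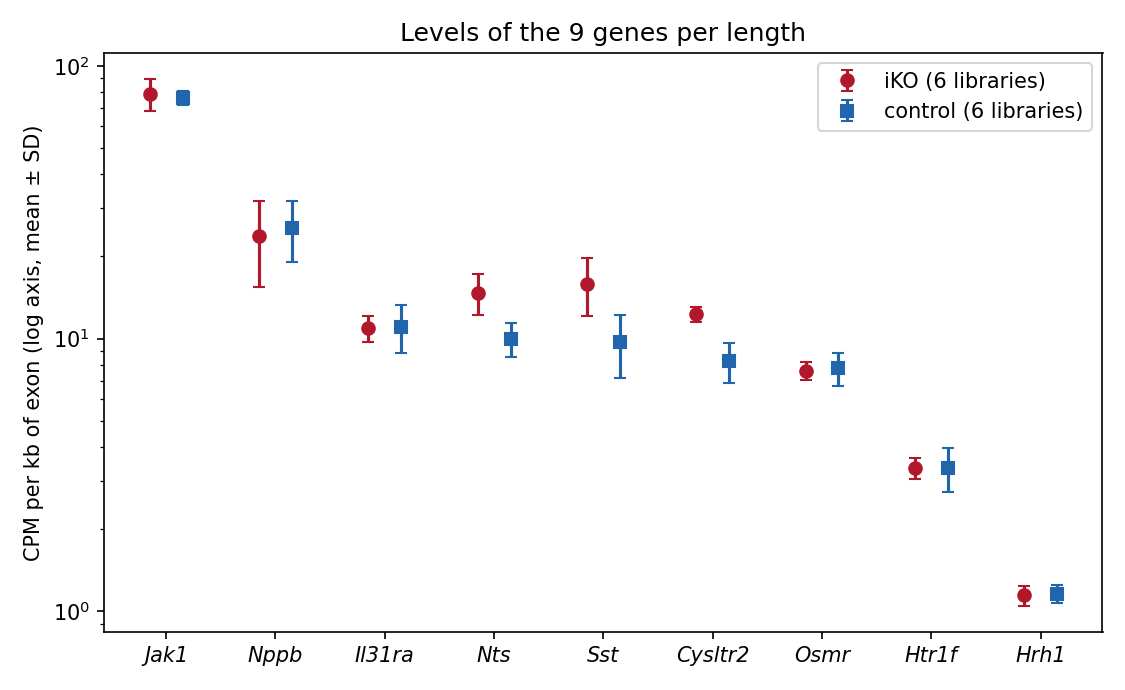
Mean level of each gene in CPM per kb of exon (log axis) with SD, for 6 iKO and 6 control libraries, ordered by the control level. The iKO means of Nts, Sst and Cysltr2 lie above that of Il31ra, while in controls Il31ra lies above all 3.

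The 2 chains of the interleukin 31 receptor varied together from library to library more closely than any other pair of the 9 genes. After the group and sex means were removed, Il31ra and Osmr had a Pearson r of 0.97 over 12 libraries (Spearman's rho 0.95). Each was the gene most like the other among all 16383 other genes tested. On log2 CPM with no means removed, r was 0.89 within the 6 iKO libraries and 0.99 within the 6 controls. It was 0.93 over the deviations without the 2 libraries farthest from the median of Il31ra. The ratio of their CPM was 0.667 ± 0.0359 in iKO libraries and 0.658 ± 0.0434 in controls (SD, n = 6 each). These values are a description, since depth and cell make-up act on both genes of a library.

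Lower values linked the genes that rose. Sst and Nts, both higher in iKO libraries, had r = -0.32, Sst and Cysltr2 0.41, and Nts and Cysltr2 0.54. Among the peptides, Nppb was closest to Nts (0.72), with -0.06 to Sst. That order did not hold within controls, where Nppb had 0.42 with Nts and 0.79 with Sst. Within iKO libraries the values were 0.31 and 0.16. Htr1f followed Il31ra (0.65) and Osmr (0.69), with values of 0.99 and 0.96 within controls but -0.47 and -0.23 within iKO libraries; that difference was not tested. Hrh1, which many cell types make, had an r near 0 with the receptor chains (-0.01 with each).

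**Figure D4:**
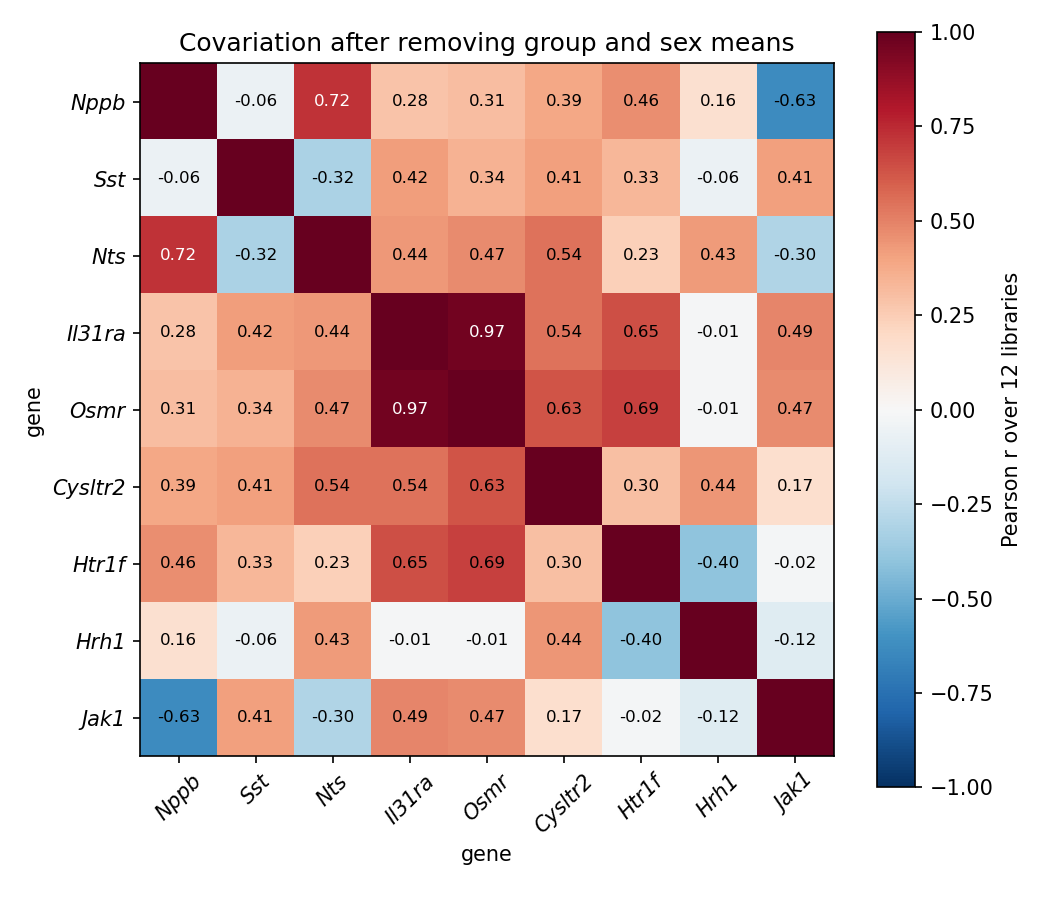
Pearson r between each pair of the 9 genes (both axes) over 12 libraries, computed on log2 CPM after removing group and sex means; red is positive and blue negative. Il31ra and Osmr form the strongest pair at 0.97, and Jak1 against Nppb is the most negative at -0.63. The value for Jak1 and Nppb was -0.42 without iKO 1 and -0.18 without the 2 libraries farthest from the median of Nppb.

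Of all named genes with a mean of 1 CPM or more, those most like the 3 peptide genes, Il31ra, Osmr and Cysltr2 were as follows, by the same r over 12 libraries. Beside Osmr, Il31ra was closest to Pcdhb7 (0.92) and Tmtc4 (0.88), and beside Il31ra, Osmr was closest to Zfp954 (0.93) and Suv39h2 (0.92). Cysltr2 was closest to Crnkl1 (0.95), Atcayos (0.94) and Rtl4 (0.93). Nppb was closest to Hddc2 (0.97), Atp6v0b (0.95) and Sf3b6 (0.95). Sst was closest to Nfs1 (0.94), Tagap1 (0.93) and Il6st (0.90), the last encoding the signal chain that most receptors of the interleukin 6 family share. Nts was closest to Rsu1 (0.94), Mettl6 (0.91) and BC002059 (0.89). With so few libraries, high values of r arise for some gene among so many, so these names rank likeness only.

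Markers of other cells in or near the ganglion held 0 called genes in edgeR's quasi-likelihood test. Sst and Nts are also made by spinal cord neurons. Of 8 spinal cord markers 3 were measurable, and the summed level was 16.5 to 28.8 CPM in iKO libraries and 14.7 to 20.5 CPM in controls, most of it Aqp4 (Gad1 had the smallest p, 0.40 ± 0.28 SE, adjusted p = 0.684). The defining markers Slc32a1, Gad2, Slc6a5, Lbx1 and Olig2 were too low to test. The highest sum was that of iKO 5, and its part in the levels of Sst and Nts was not tested. Of 7 mast cell markers, of interest beside the leukotriene receptor, 6 were measured, and the sum was 103 to 110 CPM in iKO libraries and 103 to 123 CPM in controls, most of it Kit, which sensory neurons also make (Cpa3 -0.40 ± 0.29 SE, adjusted p = 0.69).

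The remaining marker lists also had 0 members called. Summed macrophage markers (8 genes) were at 110 to 319 CPM in iKO libraries and 116 to 183 CPM in controls (Mrc1 -0.17 ± 0.20 SE). Fibroblast markers (7 genes) were at 1403 to 3973 CPM in iKO libraries and 1455 to 2161 CPM in controls (Col1a1 0.37 ± 0.31). Endothelial markers (6 genes) were at 72.8 to 180 CPM in iKO libraries and 88.3 to 108 CPM in controls (Tek -0.20 ± 0.17). The highest sum of each was that of iKO 1. Satellite glia markers (6 genes) had 2660 to 3712 CPM in iKO libraries and 2622 to 3064 CPM in controls (Cdh19 -0.09 ± 0.08 SE), and iKO 1 again had the highest sum. Schwann cell markers (6 genes, all with positive fold changes) had a median log2 fold change of 0.25. Muscle markers (5 genes) had 16.3 to 89.7 CPM in iKO libraries and 18.4 to 411 CPM in controls (Myh4 -1.05 ± 0.74). Sensory neuron markers had a median log2 fold change of 0.05 (Uchl1 0.13 ± 0.07 SE, adjusted p = 0.587 in edgeR's quasi-likelihood test).

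The rises of Sst, Nts and Cysltr2 were also taken over subsets of libraries. Without iKO 1 they were 0.67, 0.57 and 0.58 on the log2 scale, all called (adjusted p = 0.00217, 0.0169 and 0.00256 in edgeR's quasi-likelihood test). With libraries scaled to the summed sensory neuron markers they were 0.58, 0.55 and 0.51, and only Sst was called (adjusted p = 0.0315, 0.184 and 0.0665). Without the controls that lack Cre none of the 3 was called, at 0.65, 0.54 and 0.57 (adjusted p = 0.0871, 0.218 and 0.0861). In replicates 1 to 4 of both groups the fold changes were 0.49, 0.56 and 0.47, none called (adjusted p = 0.287, 0.145 and 0.0568). In replicates 5 and 6, where the controls are the corn-oil ones, they were 0.90, 0.71 and 0.81, and only Cysltr2 was called (adjusted p = 0.0787, 0.36 and 0.0225 in edgeR's quasi-likelihood test). In females alone the fold changes were 0.55, 0.53 and 0.45, and in males alone 0.68, 0.62 and 0.62, none called at these sizes (adjusted p = 0.648 for each in females, and 0.115, 0.148 and 0.0942 in males).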

How the data were processed

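The submitters' processing notes name featureCounts 2.0.1, STAR 2.7.8a, bcl2fastq 2.20.0.422 and the build GRCm39. Per the labels' protocols the TruSeq kit was an unstranded one, so reads of overlapping genes on opposite strands cannot be told apart. Of the 9 genes, Il31ra shares 0.79% of its exon bases with Gm3226 on the same strand and Jak1 0.06% with Raver2 on the opposite strand. For Prdm12, 8.09% of exon bases lie opposite Gm13425. The authors deposited whole-number counts for each gene, 1 table per library and not normalized. The sources used here do not give the annotation release or counting options. Symbols came from a table of mouse gene names, by identifier (93.99% of identifiers, 99.67% of counts). Exon lengths for CPM per kb and exon overlaps came from GENCODE M21, which is on GRCm38.

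Genes were filtered with filterByExpr by group (16384 kept), scaled by TMM and tested with edgeR 4.0.16 (R 4.3.3) by the robust quasi-likelihood test, 2-sided, with sex as a term (residual degrees of freedom: 9). Benjamini-Hochberg adjustment ran over all genes tested, and a gene was called at an adjusted p under 0.05. Controls of each kind were compared in a fit with 3 groups over all 12 libraries. SE and intervals were derived from the F statistic. The biological coefficient of variation was 12.8%. Likeness used log2 CPM with a prior count of 2. DESeq2 1.42.0 and limma 3.58.1 (voom) were alternatives, beside other scalings, filters, covariates and subsets of libraries. The procedure was tested on simulated counts. The 9 genes and the 20 lists (171 entries, all matched) were chosen with earlier results of these data known, so their choice is not independent of the data. Named genes were Prdm12, the 9 genes, the called members of each list (at most 4) or, with none called, its lowest-p member, and the 3 genes most like each of Nppb, Sst, Nts, Il31ra, Osmr and Cysltr2, unnamed gene models left out. Trpv1, Plcb3, Cysltr1, Aqp4, Kit and the untested spinal cord markers fall outside this rule and were named after their values were seen. The lowest-p member of 1 marker list, and that list's summed level, are not reported here.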

Additional observations from a re-analysis of the deposited data

Results flagged for a closer look

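Jak1 in iKO 1 was at 415 CPM, far below the other 5 iKO libraries (583 to 626 CPM). Prdm12 in iKO 1 was at 18.6 CPM, below the other 5 iKO libraries (22.9 to 25.4 CPM). Both values stood apart by Dixon's test of the gap to the nearest library, applied to 30 groups of values, where chance gives about 1 group in 20. They were the only 2 flags, a number near what that rate gives. The gap of Jak1 was 0.798 of the range, and that of Prdm12 was 0.63, barely past the limit of 0.625. The same library had the highest Nppb (30.3 CPM) and the highest summed macrophage, fibroblast, endothelial and satellite glia markers. The part of these in its values was not tested.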

How the results depend on the processing

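Genes called in iKO against control numbered 155, and 294 by DESeq2, 253 without a low count filter, 35 in replicates 1 to 4 alone, 82 in replicates 5 and 6 alone, 45 in males, 1 in females, 235 without the corn-oil controls and 49 without the controls that lack Cre; leaving out 1 library gave 92 (without control 1) to 364 (without iKO 1). DESeq2 called 594 against tamoxifen-injected controls, 68 against corn-oil controls, 44 between the 2 kinds of control, 17 between the sexes and 2 for the interaction, where edgeR called 222, 24, 0, 9 and 0. Without a filter these were 927, 349, 443, 16 and 270, and iKO against corn-oil controls in males gave 70. Leaving out 1 library gave 98 to 1459 against tamoxifen-injected controls, 3 to 160 against corn-oil controls, 0 to 14 between the controls and 0 to 1 for the interaction. Why these counts moved was not tested. Some list genes not called in the main iKO against control fit were called in other settings. Over 12 fits without 1 library and 14 other settings, Pias3 was called in 2 and 4 and Sstr1 in 1 and 2. Crlf2, Pam and Prkcd were each called in 1 and 1.

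With the replicate block in place of sex, 161 genes were called, and Sst, Nts and Cysltr2 stayed called. The numbers share no stated source: deviations of same-numbered libraries correlated above 0.1 in 3 of 6 pairs (-0.15 to 0.22), and not every library correlated best with its own number.

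No called value of the 9 genes or Prdm12 changed sign. Small uncalled log2 values did. For iKO against control, replicates 5 and 6 alone gave Nppb 0.2162, Il31ra 0.2545, Osmr 0.1525, Htr1f 0.1979, Hrh1 0.1211 and Col1a1 -0.056; males alone gave Il31ra 0.0801, Osmr 0.0555, Htr1f 0.1066, Hrh1 0.0185, Col1a1 -0.0114 and Cdh19 0.0033; females alone gave Tac1 -0.1052 and Gad1 -0.2398. Tac1 was -0.0226 without the corn-oil controls, Hrh1 0.0105 without the controls that lack Cre, and Htr1f 0.0005 without a filter, 0.0091 with the block and 0.0009 with the number set as a term. Prdm12 between the sexes was 0.0018 by DESeq2, and Jak1 between the controls 0.0015 without a filter and 0.0357 in the 6 controls alone. Leaving out 1 library gave, for iKO against control, Hrh1 -0.0648 to 0.0144, Htr1f -0.0586 to 0.0605, Il31ra -0.0857 to 0.0524, Osmr -0.0766 to 0.0216 and Cdh19 -0.1252 to 0.0054. It gave Htr1f -0.2123 to 0.0012 against tamoxifen-injected and Hrh1 -0.0404 to 0.2077 against corn-oil controls; Hrh1 -0.2482 to 0.0001, Jak1 -0.0669 to 0.0612 and Prdm12 -0.9574 to 0.2335 between the controls; Hrh1 -0.0232 to 0.0517 and Prdm12 -0.0685 to 0.099 between the sexes; and Jak1 -0.0588 to 0.1836, Nppb -0.2433 to 0.346, Nts -0.0957 to 0.2725 and Sst -0.0168 to 0.2475 for the interaction. Depth left 62 to 109 counts per library for Hrh1, the lowest of the 9 genes, and 75 to 275 for Sst.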
